A study of Mus musculus with 23 samples.

Results

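The genes of the ERBB, RAS and RAF signaling chain were followed by name through mouse melanoma tumors: the receptors Erbb2 and Erbb3, the RAS genes Hras and Nras, the RAF kinase Braf, the MEK kinase Map2k1 and the ERK kinase Mapk3. They are 7 of the 56748 genes in the count table, chosen by name as receptors, RAS, RAF, MEK and ERK genes, with earlier results of these data known. The tumors grew from B16-F1 cells, a melanoma line derived from C57BL/6 mice, implanted under the skin of DBA/2J mice aged 6 to 8 weeks, so the cells and the host differed in strain in all groups. Drugs were given from day 6, and the tumors were collected on day 14. PTX is pentoxifylline, an inhibitor of phosphodiesterases, given at 60 mg/kg. NCTD is norcantharidin, an inhibitor of protein phosphatases, given at 3 mg/kg, and MIX is both drugs at these doses. Intraperitoneal (IP) treatments were dissolved in saline and compared with CONTROL_IP, which received saline. Intratumoral (IT) treatments were dissolved in DMSO and compared with CONTROL_IT, which received DMSO. Each IP group had 2 tumors, PTX_IT had 3, and CONTROL_IT, NCTD_IT and MIX_IT had 4 each, 23 tumors in all. The labels name the route as the batch, so route, vehicle and batch cannot be told apart. The labels number every tumor but do not describe the animals one by one, so the p-values measure the spread between these samples.

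ERBB receptors are tyrosine kinases of the cell surface that pair up when a growth factor binds. Erbb2 binds no ligand of its own and serves as the preferred partner of the others, while Erbb3 binds neuregulins, has little kinase activity and matters in the melanocyte and Schwann cell lineages. Receptor pairs recruit adaptors and exchange factors that load RAS with GTP. Loaded RAS brings RAF kinases to the membrane, RAF phosphorylates MEK, and MEK phosphorylates ERK, which drives growth genes together with the inhibitors that restrain the chain. In the coordinates of the count table (GRCm39) the receptors lie at chr11:98303296-98328542 (Erbb2, plus strand) and chr10:128403392-128425521 (Erbb3, minus strand). The RAS genes lie at chr7:140769018-140773918 (Hras, minus strand) and chr3:102965601-102975230 (Nras, plus strand). The kinases lie at chr6:39580171-39702397 (Braf, minus strand), chr9:64093052-64160913 (Map2k1, minus strand) and chr7:126358773-126364991 (Mapk3, plus strand). Melanoma is known for activation of this chain through BRAF or NRAS. Its activity is set mainly by phosphorylation and GTP loading, which RNA counts do not measure.

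Promoter letters are shown for the members in which 3 short motifs occurred, because the levels below are levels of RNA. The motifs were the cAMP response element TGACGTCA, the GC box GGGCGG and the E-box CACGTG, searched on both strands in the 250 bases before each gene's start in the RefSeq promoters (assembly GRCm39), which held 5 of the 7 members. Each line gives the 30 bases with the most motif letters, 5′ to 3′ on the gene's strand, with the motifs in capitals.
Braf (chr6:39702469-39702498, minus strand): gaTGACGTCAcgcacccaggTGACGTCAcg
Hras (chr7:140773919-140773948, minus strand): acggacgggcgtgGGGCGGagcgGGGCGGg
Nras (chr3:102965522-102965551, plus strand): ttgaaatggGGGCGGGGCGGggctggactg
Map2k1 (chr9:64160900-64160929, minus strand): gGGGCGGggcctgctcgtttccCCGCCCct
Braf carried 2 copies of the cAMP response element, a motif present in 1.55% of 32851 promoters of the same length. The GC box, present in 32.7% of those promoters, occurred 3 times in Hras, 4 times in Map2k1, once in Braf and as 2 overlapping copies in Nras. Nras also held the E-box, which 6.02% of promoters hold, and the Erbb2 promoter held none of the 3 motifs. The starts are those of RefSeq. The Map2k1 window reaches down to chr9:64160888 and the Erbb2 window up to chr11:98303309, each inside the gene by the coordinates of the count table. In the GENCODE annotation of the same build Braf extends to chr6:39702629, so its stretch above lies inside that gene. These matches describe letters only. Factor binding was not measured here.

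Each tumor yielded between 2861578 and 6702374 counts (median 4013068), and 3 counts corresponded to 0.449 to 1.04 CPM, the count scaled to the size of the library by TMM. Such floors cover counting error only. All 7 melanocyte lineage markers were present in every tumor, from Sox10 at 250 CPM or more to Dct at up to 20100 CPM. Markers of sex split the IT groups. Xist, the RNA of the inactive X chromosome, was at 1.28 to 11.6 CPM in PTX_IT and 5.19 to 13.6 CPM in NCTD_IT against 0 to 0.566 CPM in CONTROL_IT and 0 in MIX_IT, and Y-linked Ddx3y had the opposite pattern. The IP groups had no such split except for 1 CONTROL_IP tumor with Xist at 8.26 CPM. Melanocyte markers summed to 26300 to 32000 CPM in CONTROL_IT, 24600 to 31000 in PTX_IT, 19300 to 27200 in NCTD_IT and 15300 to 29000 in MIX_IT. Fibroblast markers summed to 109 to 369 CPM in CONTROL_IT, 260 to 812 in PTX_IT, 391 to 1680 in NCTD_IT and 494 to 8600 in MIX_IT. In bulk tumor RNA, fewer cells of a type and less RNA per cell cannot be told apart.

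**Figure D1:**
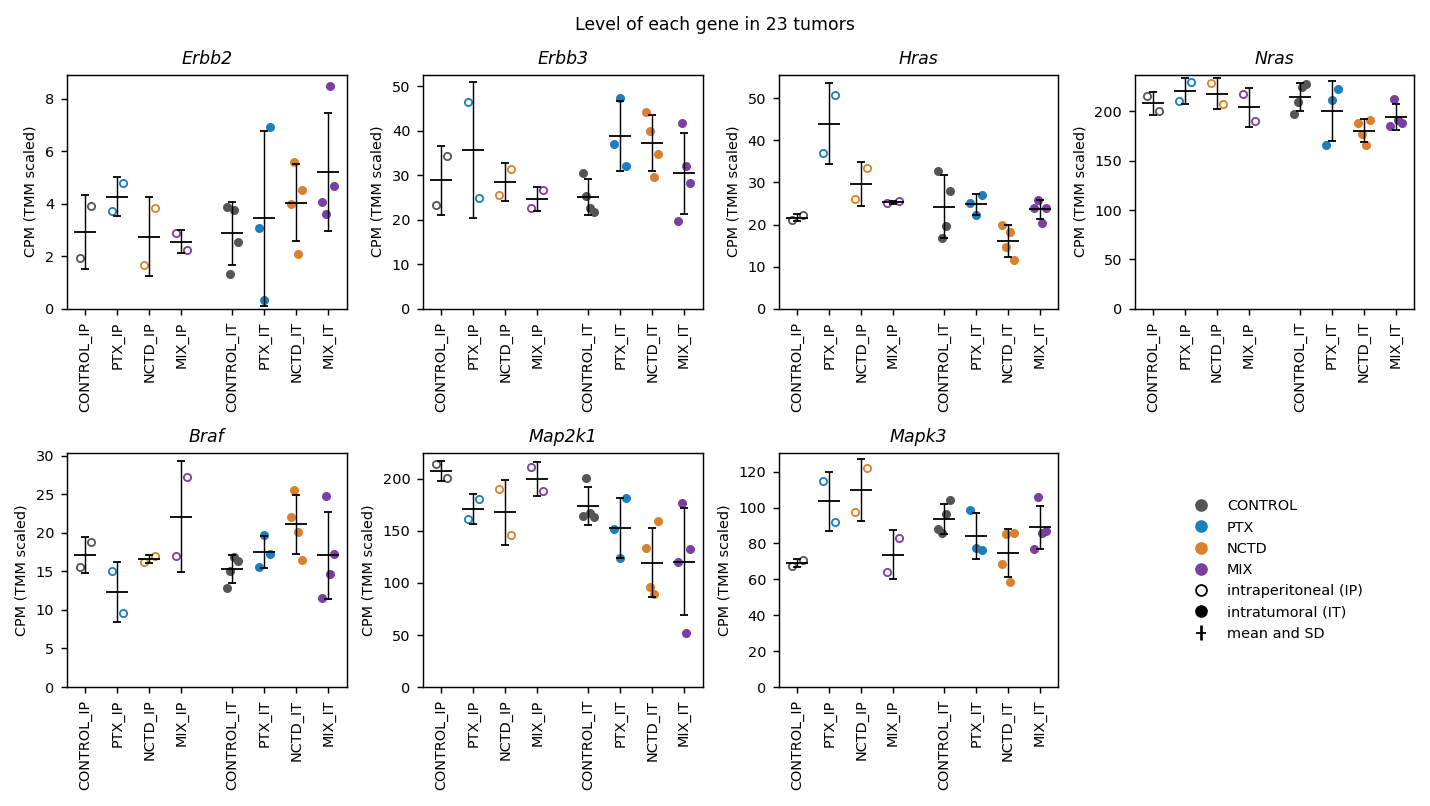
Level of each of the 7 genes (CPM, TMM scaled; each vertical axis starts at 0) in the 23 tumors by group, with open circles for IP, filled circles for IT, and the group mean with its SD. Hras in both PTX_IP tumors (37.1 and 50.7 CPM) stands above its CONTROL_IP tumors, and Map2k1 has its lowest value, 52.2 CPM, in a MIX_IT tumor.

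None of the 7 genes passed the test in any treatment group. Setting each of the 6 treatment groups against its own control gave 42 differences. They ran from -0.58 to 1.02 on the log2 scale, with 0 at an adjusted p below 0.05 in edgeR's quasi-likelihood test (smallest adjusted p = 0.155). At an unadjusted p below 0.05 there were 6, which were Hras and Mapk3 in PTX_IP, Mapk3 in NCTD_IP, Erbb3 in PTX_IT, and Erbb3 and Hras in NCTD_IT. DESeq2 on the groups compared called 0 members in all 6 comparisons and gave 5 members at an unadjusted p below 0.05. Over all tested genes edgeR called 0% in PTX_IP, NCTD_IP, MIX_IP, PTX_IT and MIX_IT, and 1.37% of 12480 genes in NCTD_IT. The shares at an unadjusted p below 0.05 were 5.3% in PTX_IP, 3.59% in NCTD_IP, 2.94% in MIX_IP, 6.35% in PTX_IT, 21.6% in NCTD_IT and 13% in MIX_IT. All 7 members passed the filter on low counts in both routes. The median of the 7 differences was 0.31 in PTX_IP and -0.25 in NCTD_IT, beside medians over all genes of 0.01 and 0.03. In the other 4 comparisons it lay between -0.04 and 0.03. Ordered by mean level, all neighbouring groups overlapped for every member except Hras, for which PTX_IP stood apart from NCTD_IP, NCTD_IP from MIX_IP, and CONTROL_IP from NCTD_IT. Each of these pairs holds a group of 2 tumors, and the share of all genes with such gaps was not computed. The highest and the lowest of the 8 means were MIX_IT and MIX_IP for Erbb2, PTX_IT and MIX_IP for Erbb3, PTX_IP and NCTD_IT for Hras and for Nras, MIX_IP and PTX_IP for Braf, CONTROL_IP and NCTD_IT for Map2k1, and NCTD_IP and CONTROL_IP for Mapk3. A test for any difference among the 4 groups of a route also called 0 members (smallest adjusted p = 0.408), beside 0.024% of all genes in IT and 0% in IP. Hras and Mapk3 in IP had an unadjusted p below 0.05 in that test, as 3.27% of all genes did, and no member did in IT, where 12.9% of genes did.

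**Figure D2:**
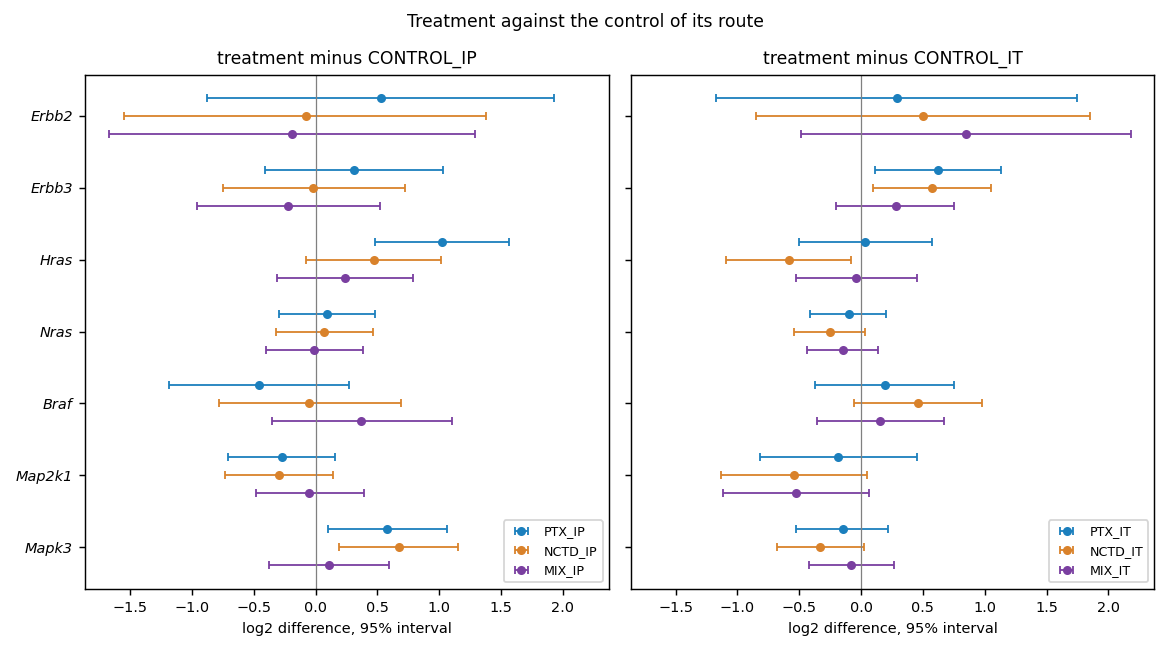
Differences (log2) of PTX, NCTD and MIX from the control of the same route for each gene, with IP on the left, IT on the right and 95% intervals from edgeR. The intervals of Hras and Mapk3 in PTX_IP, Mapk3 in NCTD_IP, Erbb3 in PTX_IT and NCTD_IT, and Hras in NCTD_IT leave out 0, and the Erbb2 intervals are the widest.

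Erbb3, the neuregulin receptor, had 77 to 311 counts per tumor. By the IT route it read 30.6, 25.4, 22.7 and 21.8 CPM in CONTROL_IT, 37.1, 47.4 and 32.1 CPM in PTX_IT, 44.3, 39.9, 29.7 and 34.9 CPM in NCTD_IT, and 19.7, 41.8, 32 and 28.3 CPM in MIX_IT. All 3 PTX_IT tumors lay above all 4 controls, while NCTD_IT and MIX_IT overlapped the controls. The difference from CONTROL_IT was 0.62 (SE 0.24, 95% interval 0.11 to 1.13, adjusted p = 0.785) in PTX_IT on the log2 scale. It was 0.57 (SE 0.22, 95% interval 0.1 to 1.05, adjusted p = 0.155) in NCTD_IT and 0.28 (95% interval -0.2 to 0.75) in MIX_IT. Erbb3 was the only member whose PTX_IT and control tumors did not overlap, in a comparison in which 7.96% of all genes did not overlap (9.91% in MIX_IT, where no member was apart). By the IP route it read 23.3 and 34.4 CPM in CONTROL_IP, 46.6 and 24.9 CPM in PTX_IP, 25.5 and 31.5 CPM in NCTD_IP, and 22.7 and 26.6 CPM in MIX_IP. Every IP treatment overlapped its control, and the PTX_IP difference was 0.31 (95% interval -0.41 to 1.03). Fitted with the Xist level as a covariate, the Erbb3 difference was 0.37 in PTX_IT and 0.29 in NCTD_IT. In both comparisons Xist divides the tumors as treatment does, so Xist and treatment cannot be told apart.

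Erbb2 was close to the counting floor. It had between 1 and 35 counts per tumor and 0.322 to 8.5 CPM, and its lowest value, in a PTX_IT tumor, was below the CPM that 3 counts stand for. Group means ran from 2.56 ± 0.443 CPM (SD, n = 2) in MIX_IP to 5.2 ± 2.24 CPM (SD, n = 4) in MIX_IT. All neighbouring groups in the order of means overlapped. The differences from control ran from -0.19 in MIX_IP to 0.85 in MIX_IT, and the 95% interval of the latter was -0.49 to 2.18. The PTX_IT tumors had 11, 1 and 27 counts in libraries of 3132604 to 3908907 counts.

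Hras, which codes for a classical RAS GTPase, varied most between groups, with a highest group mean 2.73 times the lowest. In the IP tumors it read 21 and 22.2 CPM in CONTROL_IP, 37.1 and 50.7 CPM in PTX_IP, 26 and 33.4 CPM in NCTD_IP, and 25 and 25.5 CPM in MIX_IP. All 6 treated IP tumors lay above both controls, and the 2 PTX_IP tumors lay above the other treated tumors. With 2 tumors a group this separation is common, since 31.8% of all genes in PTX_IP, 34.3% in NCTD_IP and 35.9% in MIX_IP had no overlap with CONTROL_IP. The PTX_IP difference was 1.02 (SE 0.24, 95% interval 0.48 to 1.56), with an adjusted p of 0.906 in edgeR. An exact two-sided permutation test of 2 tumors against 2 cannot go below 0.333, the value it gave here. The difference was 0.47 (95% interval -0.08 to 1.01) in NCTD_IP and 0.24 (95% interval -0.31 to 0.79) in MIX_IP.

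By the IT route Hras read 32.7, 16.7, 19.7 and 28 CPM in CONTROL_IT and 19.8, 14.7, 18.3 and 11.5 CPM in NCTD_IT. It read 25.1, 22.2 and 27 CPM in PTX_IT and 24, 25.9, 20.4 and 24 CPM in MIX_IT. The 4 controls ranged from 16.7 to 32.7 CPM and overlapped every treated group. NCTD_IT had the lowest mean of all 8 groups, at 16.1 ± 3.75 CPM (SD, n = 4). Its difference from CONTROL_IT was -0.58 (SE 0.24, 95% interval -1.09 to -0.08, adjusted p = 0.167), and those of PTX_IT and MIX_IT were 0.03 and -0.04. With the Xist level as a covariate the NCTD_IT difference was -0.03, and with the mean stromal and immune marker level it was -0.14. In Xist and in treatment the CONTROL_IT and NCTD_IT tumors divide alike, so these 2 cannot be told apart.

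Nras, the RAS gene most often mutated in melanoma, varied least, with a highest group mean 1.22 times the lowest and 166 to 230 CPM over all tumors. It read 197, 209, 225 and 228 CPM in CONTROL_IT against 188, 177, 166 and 191 CPM in NCTD_IT. These tumors did not overlap, in a comparison in which 16.8% of all genes did not overlap. The difference was -0.25 (SE 0.14, 95% interval -0.54 to 0.03, adjusted p = 0.286). The other 5 differences of Nras lay between -0.15 and 0.09. Their 95% intervals spanned at most -0.44 to 0.48, the narrowest of any member.

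Braf, the RAF kinase most often mutated in melanoma, was at 9.61 to 27.2 CPM and 44 to 159 counts. It read 15.5 and 18.8 CPM in CONTROL_IP, 15.1 and 9.61 CPM in PTX_IP, 16.2 and 17 CPM in NCTD_IP, and 17 and 27.2 CPM in MIX_IP. Both PTX_IP tumors lay below both controls, in a comparison in which 31.8% of all genes did not overlap. The difference was -0.46 (SE 0.32, 95% interval -1.19 to 0.27, adjusted p = 0.923). By the IT route it read 12.9, 15.1, 16.9 and 16.4 CPM in CONTROL_IT, 15.6, 19.7 and 17.2 CPM in PTX_IT, 22.1, 25.6, 20.1 and 16.5 CPM in NCTD_IT, and 11.6, 24.8, 14.6 and 17.3 CPM in MIX_IT. Of the NCTD_IT tumors 3 lay above all controls and the fourth lay among them. The NCTD_IT difference was 0.46 (SE 0.24, 95% interval -0.06 to 0.98, adjusted p = 0.285). In the coordinates of the count table the 3′ end of Braf shares 146 bases with Ndufb2, a gene on the opposite strand, and the strand setting of the counting is not given in the sources used here. Reads from these shared bases cannot be told apart, and 3′ libraries take their reads from the ends of genes. In the GENCODE annotation of the same build the shared stretch is 15802 bases for Braf, and the 3′ end of Map2k1 shares 3827 bases with Snapc5 of the opposite strand.

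Map2k1, which codes for the kinase MEK1 directly below RAF, had lower means in every treated group than in its control, and none of these differences passed the test. It read 164, 201, 167 and 163 CPM in CONTROL_IT, 152, 124 and 182 CPM in PTX_IT, 134, 96.3, 88.9 and 159 CPM in NCTD_IT, and 120, 177, 52.2 and 133 CPM in MIX_IT. The 4 NCTD_IT tumors lay below all controls, in a comparison in which 16.8% of all genes did not overlap. In MIX_IT 3 of the 4 lay below them. In NCTD_IT the difference was -0.54 (SE 0.28, 95% interval -1.13 to 0.05, adjusted p = 0.275), and an exact two-sided permutation test gave p = 0.0286, the smallest that 4 tumors against 4 allow and the same as for Nras. In MIX_IT it was -0.53 (SE 0.28, 95% interval -1.12 to 0.06, adjusted p = 0.435) and in PTX_IT -0.19 (95% interval -0.82 to 0.45). By the IP route Map2k1 read 214 and 201 CPM in CONTROL_IP, 161 and 181 CPM in PTX_IP, 190 and 146 CPM in NCTD_IP, and 211 and 188 CPM in MIX_IP. PTX_IP and NCTD_IP lay below both controls and MIX_IP overlapped them, with single-drug differences of -0.27 (95% interval -0.71 to 0.16) and -0.3 (95% interval -0.73 to 0.14). Over all genes 31.8% in PTX_IP and 34.3% in NCTD_IP did not overlap the control.

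Mapk3, which codes for the kinase ERK1 at the end of the chain, passed the test in no treatment group. It read 67.4 and 70.8 CPM in CONTROL_IP, 115 and 91.9 CPM in PTX_IP, 97.5 and 122 CPM in NCTD_IP, and 64.2 and 83.3 CPM in MIX_IP. The tumors of both single drugs lay above both controls, where 31.8% of all genes in PTX_IP and 34.3% in NCTD_IP did not overlap, and MIX_IP overlapped them. The difference was 0.58 (SE 0.21, 95% interval 0.1 to 1.06, adjusted p = 0.906) in PTX_IP, 0.67 (SE 0.21, 95% interval 0.19 to 1.15, adjusted p = 0.999) in NCTD_IP and 0.11 (95% interval -0.38 to 0.59) in MIX_IP. By the IT route it read 88.3, 86.1, 96.3 and 104 CPM in CONTROL_IT, 98.9, 77.3 and 76.5 CPM in PTX_IT, 68.7, 85.2, 58.4 and 86.1 CPM in NCTD_IT, and 76.9, 106, 85.9 and 86.9 CPM in MIX_IT. Of the PTX_IT tumors 2 lay below the controls, the highest NCTD_IT tumor was level with the lowest control, and MIX_IT spanned the control range. The NCTD_IT difference was -0.33 (SE 0.16, 95% interval -0.68 to 0.02, adjusted p = 0.257).

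The 4 groups of a route also form a design with each drug present or absent, which asks whether MIX equals the sum of PTX and NCTD. For Mapk3 by the IP route MIX minus the sum of both drugs was -1.15 (SE 0.3, 95% interval -1.83 to -0.47), and for Hras it was -1.25 (SE 0.34, 95% interval -2.02 to -0.48). Both had an adjusted p of 0.778 in edgeR, and 6.39% of all genes had an unadjusted p below 0.05 in this comparison. For both genes the MIX_IP tumors were nearer to the control than the single drugs were. By the IT route Erbb3 had the largest such value, -0.92 (SE 0.33, 95% interval -1.61 to -0.22, adjusted p = 0.397), in a comparison in which 11.3% of genes had an unadjusted p below 0.05 and 0.0401% were called. This IT contrast sets CONTROL_IT and MIX_IT against PTX_IT and NCTD_IT, which is also how Xist and Ddx3y divide the IT tumors. For every member, a departure from the sum of the drugs by the IT route and the split of sex markers cannot be told apart. The intervals of the other 5 members in IP and of the other 6 in IT included 0. Averaged over the presence of the other drug, the effect of NCTD by the IT route on Map2k1 was -0.44 (SE 0.2, 95% interval -0.87 to -0.01, adjusted p = 0.334), and that of PTX by the IP route on Hras was 0.4 (SE 0.17, 95% interval 0.01 to 0.78, adjusted p = 0.998). Members called numbered 0 in all of these comparisons in edgeR. At an unadjusted p below 0.05 there were 2 for the IP combination, 1 for the IT combination, 1 for PTX by IP, where 3.28% of all genes reached it, and 1 for NCTD by IT, where 14.5% did. There were 0 for NCTD by IP, where 2.84% of genes reached it, and 0 for PTX by IT, where 2.6% did.

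Drug effects were compared between routes in a model of all 23 tumors. Mapk3 under NCTD had the largest contrast relative to its error, with the IT effect lower than the IP effect by a log2 difference of -0.99 (SE 0.28, 95% interval -1.57 to -0.42, adjusted p = 0.294 in edgeR). DESeq2 on the same tumors gave the same -0.99 with an adjusted p of 0.0485, so the call depends on the tool. Hras differed in the same direction under both drugs, by -1.05 (SE 0.37, 95% interval -1.82 to -0.28, adjusted p = 0.327) for NCTD and -0.99 (SE 0.38, 95% interval -1.77 to -0.2, adjusted p = 0.892) for PTX. Mapk3 under PTX differed by -0.73 (SE 0.28, 95% interval -1.32 to -0.14, adjusted p = 0.892). Of all genes, 10.8% had an unadjusted p below 0.05 in the NCTD contrast, 5.23% in the PTX contrast and 7.44% in the MIX contrast, and edgeR called 0% in each. Under MIX no member reached an unadjusted p below 0.05. The routes also differed in vehicle and batch, and these cannot be told apart. Xist was present in every PTX_IT and NCTD_IT tumor, at 0 to 0.566 CPM in CONTROL_IT, and at 0 in PTX_IP and NCTD_IP. The PTX and NCTD contrasts between routes therefore also carry the split of sex markers, and its share was not tested.

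Each member was also set against the cell markers of the tumors. Over the 23 tumors Map2k1 followed the mean log2 CPM of the melanocyte lineage markers with Pearson's r = 0.82 (permutation p = 2e-05, adjusted over 14 relations 0.00028) and Spearman's rho = 0.56 (permutation p = 0.00617, adjusted 0.0432). Within the 15 IT tumors r was 0.86 (permutation p = 0.00024, adjusted 0.00336), with rho = 0.67 (permutation p = 0.00755, adjusted 0.0528). Within the 8 IP tumors r was 0.21 (exact permutation p = 0.623, adjusted 0.787). Without the 2 tumors farthest from the median marker level r was 0.61 (permutation p = 0.00343, adjusted 0.024) and rho 0.42 (permutation p = 0.0572, adjusted 0.16). Within the IT route and without the 2 farthest tumors, r passed the threshold and rho did not, and within the IP route neither did. As deviations from group means Map2k1 had r = 0.7 (permutation p = 0.00045, adjusted 0.0063) and rho = 0.42 (permutation p = 0.0457, adjusted 0.16). The permutation shuffled all 23 deviations freely, although deviations within a group are tied to each other. All permutation p-values given for deviations therefore tend to be too small. With the melanocyte marker level as a covariate the Map2k1 difference was -0.02 in NCTD_IT and -0.15 in MIX_IT. The MIX_IT tumor with Map2k1 at 52.2 CPM also had the lowest melanocyte marker level of all tumors, 10.28. Erbb2 against the same markers passed by rank, with rho = -0.53 (permutation p = 0.0107, adjusted 0.0499) and r = -0.43 (permutation p = 0.0458, adjusted 0.19). Without the 2 farthest tumors its rho was -0.38 (permutation p = 0.0859, adjusted 0.2), within IT tumors -0.52 (permutation p = 0.0498, adjusted 0.135) and within IP tumors -0.48 (exact permutation p = 0.243, adjusted 0.936). Mapk3 passed by rank within the IT tumors, with rho = 0.75 (permutation p = 0.00179, adjusted 0.0251) and r = 0.5 (permutation p = 0.0604, adjusted 0.233). Over all tumors its rho was 0.41 (permutation p = 0.0582, adjusted 0.136). As deviations from group means neither passed by rank, with rho = -0.38 for Erbb2 (permutation p = 0.0767, adjusted 0.179) and 0.45 for Mapk3 (permutation p = 0.0298, adjusted 0.139).

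Erbb3 followed the mean log2 CPM of fibroblast, endothelial, macrophage and T and NK cell markers with r = 0.5 (permutation p = 0.0128, adjusted 0.0893) and rho = 0.66 (permutation p = 0.0008, adjusted 0.0112). Without the 2 farthest tumors r was 0.77 (permutation p = 5e-05, adjusted 0.0007). Within IT tumors r was 0.48 (permutation p = 0.0671, adjusted 0.233) and within IP tumors 0.67 (exact permutation p = 0.063, adjusted 0.787), so that r passed the threshold in neither route alone. As deviations from group means Erbb3 had r = 0.38 (permutation p = 0.0712, adjusted 0.166) and rho = 0.48 (permutation p = 0.0228, adjusted 0.139), and neither passed. With this marker level as a covariate, chosen after the data were seen, the Erbb3 difference was 0.52 in PTX_IT and 0.43 in NCTD_IT. Hras lay on the other side, with r = -0.4 over all tumors (permutation p = 0.0565, adjusted 0.19) and r = -0.59 for deviations from group means (permutation p = 0.00283, adjusted 0.0198), where rho was -0.58 (adjusted permutation p = 0.0539). The p-values for deviations tend to be too small, as said above, so the pass of r for Hras is not firm. The marker level ran from 1.85 to 3.74 in CONTROL_IT, 2.53 to 4.72 in PTX_IT, 3.94 to 4.74 in NCTD_IT and 3.93 to 4.56 in MIX_IT.

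**Figure D3:**
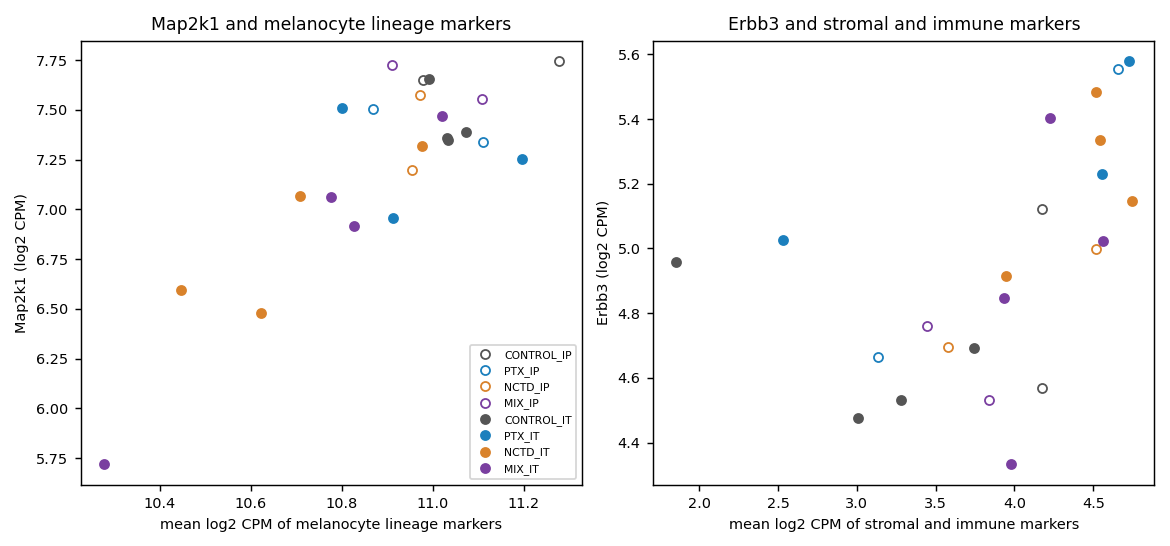
Left, Map2k1 (log2 CPM) against the mean log2 CPM of the 7 melanocyte lineage markers, and right, Erbb3 (log2 CPM) against the mean log2 CPM of stromal and immune markers, 1 point for each of the 23 tumors (open IP, filled IT). The filled points carry the slope on the left (r = 0.86 within IT), and on the right 2 filled points at the far left lie off the trend.

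The rest of the chain was read from 10 lists of its ligands, regulators, relatives and outputs, 75 genes in all, of which 59 were tested by the IT route and 56 by the IP route. In NCTD_IT 1 of the 59 rose and 0 fell at an adjusted p below 0.05, and 22% had an unadjusted p below 0.05, beside 21.6% of all genes. The gene that rose was Rasa2, a GTPase-activating protein that switches RAS off, from 47 ± 5.31 CPM (SD, n = 4) in CONTROL_IT to 83.3 ± 12.3 CPM (SD, n = 4). Its difference was 0.82 (SE 0.18, adjusted p = 0.0414), and the tumors ranged from 41.3 to 53.9 CPM and from 71.6 to 99.6 CPM without overlap. The call was lost when any of 6 tumors was left out. Without CONTROL_IT replicate 9, 11 or 12, or NCTD_IT replicate 17, 18 or 19, 0 of the list genes were called, and 0 were called with the Xist, melanocyte or stromal level as a covariate. In MIX_IT Rasa2 was at 74.3 ± 16 CPM (difference 0.66, adjusted p = 0.17).

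In the remaining comparisons 0 list genes were called in edgeR. At an unadjusted p below 0.05 there were 4 of 59 in PTX_IT (6.78%, beside 6.35% of all genes), 10 of 59 in MIX_IT (16.9% beside 13%), 5 of 56 in PTX_IP (8.93% beside 5.3%), 2 of 56 in NCTD_IP (3.57% beside 3.59%) and 4 of 56 in MIX_IP (7.14% beside 2.94%). Cbl, a ubiquitin ligase that takes active receptors off the surface, was among the 3 smallest p-values of each IT comparison. It was at 70.9 ± 12 CPM in CONTROL_IT and differed by 0.56 in PTX_IT (adjusted p = 0.785), 0.7 in NCTD_IT (adjusted p = 0.0591) and 0.6 in MIX_IT (adjusted p = 0.197). The IT comparisons share the same controls. By the IP route the Cbl differences were in the opposite direction, -0.51 in PTX_IP (adjusted p = 0.906 in edgeR), -0.23 in NCTD_IP and -0.12 in MIX_IP. Egr1, an immediate early transcription factor induced by ERK, differed by 1.94 in NCTD_IT (SE 0.48, adjusted p = 0.0542), from 6.49 ± 3.26 to 25.2 ± 9.94 CPM. Gab2, a docking adaptor, differed by 0.85 in PTX_IT (adjusted p = 0.785), and Pebp1, a protein that binds RAF and holds it back, by -0.53 (adjusted p = 0.785). Pebp1 also differed by -0.61 in NCTD_IT (adjusted p = 0.0976 in edgeR) and was at 238 ± 48.3 CPM in MIX_IT against 256 ± 63.6 CPM in CONTROL_IT. By the IP route its differences were 0.3 in PTX_IP, 0.34 in NCTD_IP and 0.13 in MIX_IP.

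Some close relatives of the members were named after their values were seen. Map2k2, which codes for MEK2, differed by -0.59 in NCTD_IT (SE 0.18, adjusted p = 0.0777), beside -0.54 for Map2k1. Araf, a RAF kinase like Braf, differed by 0.31 in NCTD_IT (95% interval -0.11 to 0.72). Egfr was listed at 0 to 8.25 CPM in the IT tumors, too low for a fold change. Of the 11 ligand genes 2 passed the filter by the IT route, and Erbb4 did not exceed 0.971 CPM in any tumor. The 17 tested feedback and output genes of ERK had a median difference of 0.17 in PTX_IT, 0.41 in NCTD_IT and -0.12 in MIX_IT, beside 0.02, 0.03 and 0.01 over all genes. Higher and lower genes numbered 10 and 7 in PTX_IT, 10 and 7 in NCTD_IT, and 8 and 9 in MIX_IT. By the IP route the medians were 0.17 in PTX_IP, 0.35 in NCTD_IP and 0.41 in MIX_IP, beside 0.01, -0.01 and -0.01. There the numbers were 13 and 4, 13 and 4, and 12 and 5.

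**Figure D4:**
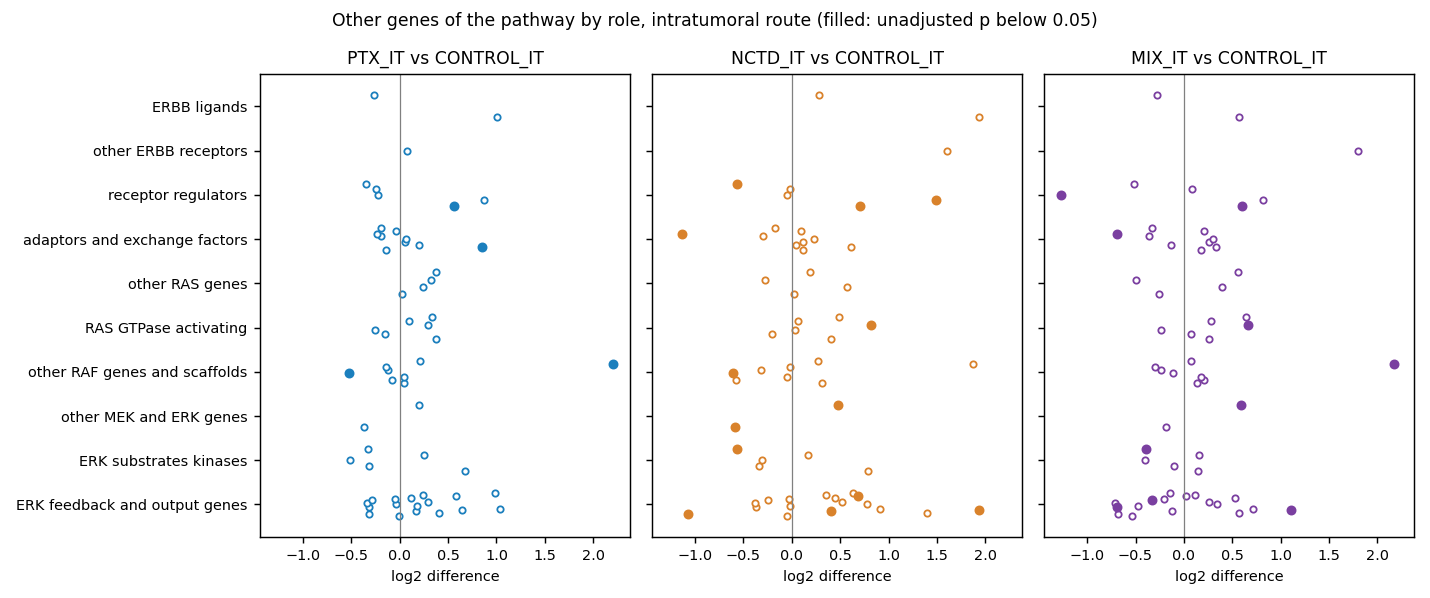
Differences (log2) of the 59 tested list genes from CONTROL_IT in PTX_IT, NCTD_IT and MIX_IT, 1 point for each gene, in rows by role, filled where the unadjusted p was below 0.05. Points lie on both sides of 0 in the rows of adaptors, RAF relatives and ERK outputs, and the filled points number 4, 13 and 10.

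Profiles over the tumors were also compared with those of all 13394 other genes by Spearman's rho of log2 CPM over 23 tumors. Map2k1 had the closest neighbours, Acot2 (0.92), Pdk3 (0.91) and Egln1 (0.89). For Mapk3 they were Ip6k1 (0.83), Ten1 (0.8) and Dpm2 (0.8), and for Hras Ddb1 (0.82), Tmem115 (0.81) and Gna11 (0.8). Erbb3 was most like Jund (0.8), Fam169b (0.8) and Pde4a (0.79). For Nras they were Larp4b (0.79), Gm6807 (0.79) and Gstm5 (0.79), for Braf Tmem198 (0.77), Rsbn1l (0.75) and Klra7 (0.71), and for Erbb2 Cstf1 (0.74), Fam110d (0.73) and Tube1 (0.73). These are the highest of many values over tumors that share library scaling, and they are given as a description. Among themselves the 7 members had rho between -0.37 and 0.63 in the 21 pairs.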

How the data were processed

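RNA of 23 tumors was sequenced in 8 groups taken from the labels. The authors made 3′ mRNA libraries, used Trimmomatic for trimming and STAR 2.7.11b for alignment to GRCm39, and deposited raw read counts per gene. Strand setting, multi-mapped reads and molecular identifiers are not given in the sources used here. Genes were kept with edgeR's filterByExpr (minimum count 10, minimum total 15), leaving 12424 genes for IP, 12480 for IT and 13395 for all tumors. Counts were scaled by TMM and tested with edgeR 4.0.16 (quasi-likelihood, two-sided, R 4.3.3) with the 4 groups of a route in a single fit and Benjamini-Hochberg adjustment over all genes tested, at a threshold of 0.05. DESeq2 1.42.0 was an alternative. Log2 CPM used a prior count of 2, correlations 100000 permutations or all permutations for 8 tumors, and seed 33. Alternatives were other scaling, no filter, other samples, covariates (Xist, melanocyte, and stromal and immune markers) and leaving out each tumor. The fits were tested on simulated data.

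The text names the members, list genes past the adjusted threshold or with the 3 smallest p-values in an IT comparison, the 3 genes most alike each member, and Xist and Ddx3y. The members and lists were chosen with earlier results of these data known. Promoters come from RefSeq. Overlaps between genes use the coordinates of the deposited table and, where named, the GENCODE annotation. Some list genes that the rule names are not reported here.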

Additional observations from a re-analysis of the deposited data

Results flagged for a closer look

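Map2k1 in CONTROL_IT had 1 tumor apart from the other 3: replicate 10 read 201 CPM against 163 to 167 CPM, a gap of 0.879 of the group's range. Of 21 pairs of a member and a group of 4 tumors this was the only such case, and chance gives about 1 in 20. The pairs share the same tumors and are not independent.

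In 4 of 21 pairs of gene and drug every IP tumor lay on one side of its control mean of log2 CPM and every IT tumor on the other. On the scale of CPM, Erbb2 under MIX did so too, and its fitted log2 difference, IT minus IP, was 1.05 (adjusted p = 0.876 in edgeR). The effect of NCTD, IT minus IP on the log2 scale, was -1.05 for Hras and -0.99 for Mapk3, and in the opposite direction 0.51 for Braf. The effect of PTX on Braf was 0.66. In edgeR's model of all tumors the adjusted p of these differences was 0.327, 0.294, 0.686 and 0.897. The share of all genes that divide in this way was not computed, so the 4 pairs have no background beside them. Route, vehicle and batch cannot be told apart, and for PTX and NCTD the split of sex markers in the IT tumors adds to them.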

How the results depend on the processing

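No paired analysis was possible because the labels give every tumor a number of its own and no groups share numbers. Over 1582 alternatives of 105 values of the members, 78 changed sign, of which 77 were values smaller than their own standard error. The exception was Erbb3, MIX minus the sum of the drugs by IP, at -0.88 to 0.02 when a tumor was left out (0.02 without PTX_IP replicate 3). Members called stayed at 0 under all alternatives except Mapk3, NCTD effect between routes, where DESeq2 on all tumors called 1.

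Counts over all genes and list genes depended on the settings. DESeq2 on the groups compared called 4 genes in PTX_IP, 11 in NCTD_IP, 12 in MIX_IP, 15 in PTX_IT, 1378 in NCTD_IT (10 list genes) and 230 in MIX_IT. edgeR on only the groups compared called 2 in NCTD_IP, 2 in MIX_IP and 946 in NCTD_IT (6 list genes). Without the filter on low counts it called 71 in PTX_IP, 71 in NCTD_IP (1 list gene), 51 in MIX_IP, 222 in PTX_IT, 1190 in NCTD_IT (6 list genes) and 364 in MIX_IT. With all 23 tumors it called 777 in NCTD_IT (6 list genes) and 9 in MIX_IT. The Xist covariate gave 0 in NCTD_IT (0 list genes) and 22 in MIX_IT, the melanocyte covariate 0 in NCTD_IT (0 list genes), and the stromal covariate 1 in MIX_IP, 1 in PTX_IT and 2 in NCTD_IT (0 list genes). Leaving out a tumor gave 0 to 1 in PTX_IP, 0 to 3 in NCTD_IP, 0 to 1 in MIX_IP, 0 to 191 in NCTD_IT (0 to 3 list genes) and 0 to 3 in MIX_IT. In NCTD_IT, where 171 were called, the count was 0 or 1 without CONTROL_IT replicate 9, 11 or 12 or NCTD_IT replicate 17 or 18, and 71 without NCTD_IT replicate 19. The cause was not tested.

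Relations with the melanocyte level within IP tumors had r = 0.21 for Map2k1, and r = -0.48 for Hras, -0.34 for Nras and -0.17 for Mapk3 against 0.28, 0.36 and 0.28 over all tumors. As deviations from group means r was -0.05 for Hras and -0.06 for Nras, and -0.59 for Hras with the stromal level. Without the 2 farthest tumors Erbb3 and the stromal level had r = 0.77. Erbb2, with 1 to 35 counts a tumor, had standard errors of 0.62 to 0.69 in the comparisons with control, and each IP group had 2 tumors.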
